A study of Drosophila melanogaster with 17 samples.

Results

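The comparison described here sets Notch knockdown against control in intestinal progenitor cells of germ-free flies, with every gene of the count table in view. It rests on 5 of the series' 17 RNA-seq libraries, chosen by their genotype and microbiome labels: 3 Notch RNAi libraries (genotype esgts/NRNAi, Germ Free) and 2 control libraries (genotype esgts, Germ Free). All flies were adult virgin Drosophila melanogaster females that spent 5 days at 25 °C and then 5 days at 29 °C, and bacteria, where given, were introduced before the move to 29 °C. The other 12 libraries are the same genotypes in flies carrying L. brevis or L. plantarum, with 3 in each group. They share the filter, scaling and estimate of spread of the main fit, and enter again where the germ-free effect is set against theirs. The controls carry the temperature-sensitive esgts driver too, so the groups differ in the RNA interference construct against Notch. Each library came from 100 pooled guts, dissociated with elastase (1 mg/mL) and sorted for small GFP-positive cells, and is therefore a mixture of whatever cells passed that gate. The third germ-free control was lost at RNA extraction according to the series' design text, which calls the samples biological replicates. Whether they were separate fly cohorts is not stated, so p-values measure the spread between libraries, estimated over all 17.

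Notch is a receptor that is cut when a neighbouring cell presents its ligand Delta, after which its intracellular part enters the nucleus with the DNA-binding protein Suppressor of Hairless and switches on targets such as the Enhancer of split genes. In the adult fly midgut, stem cells make Delta and signal to their daughters. Strong Notch signalling directs a daughter, the enteroblast, to become an absorptive enterocyte, and low signalling allows the enteroendocrine fate, in which cells store and release peptide hormones. Midguts that lose Notch are known for an excess of stem-like and enteroendocrine cells.

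Levels are given as CPM, counts scaled to a common library size by the trimmed mean of M-values (TMM), in the order of replicate number within each group. The libraries held 27610759, 35288225 and 31457985 counts in the Notch RNAi group, against 36799569 and 24192918 in the control group. The share of ribosomal RNA genes was 15.9 ± 2.37% in Notch RNAi libraries (SD, n = 3) and 19.7 ± 0.299% in control libraries (SD, n = 2). The stem cell markers sna, Delta and spdo summed to 254.7, 248.5 and 233.6 CPM under Notch RNAi and 34.9 and 26.8 CPM in controls, all 3 called higher. The listed marker esg was not matched to a gene and is left out. The 4 enteroblast markers summed to 214, 214 and 239 CPM under Notch RNAi and to 1173 and 1272 CPM in controls, all 4 called lower. These markers include Notch pathway genes and targets reported again below (Delta, spdo, E(spl)mbeta-HLH and E(spl)m3-HLH). Their levels therefore do not verify the labelled cell type. Among the marker genes of other tissues, the summed level of 11 visceral muscle genes was 26.9, 39.3 and 89.5 CPM under Notch RNAi and 17.1 and 32.9 CPM in controls. All 11 had a positive log2 fold change (0.73 to 2.64, median 1.13), none was called, and their part in the results was not tested. The ovary and eggshell list summed to at most 0.462 CPM in each library, and the fat body list to 10.1, 9.01 and 6.48 CPM under Notch RNAi against 10.04 and 15.6 CPM in controls, with no call in either. Of the 7 haemocyte markers tested, 3 were lower and 1 higher, with sums of 228, 198 and 178 CPM under Notch RNAi and 309.8 and 344 CPM in controls, while the blood cell gene Hml lay at 0.264, 0.0558 and 0 CPM under Notch RNAi and at 0.0303 and 0.432 CPM in controls. Of 4 tracheal markers 1 rose and 1 fell, and of 6 neuron and glia markers 2 rose and 2 fell. Over all genes tested 17.5% rose and 14.7% fell, and nothing is read from the haemocyte, tracheal, neuron and glia counts. Because the samples are bulk RNA, fewer cells of a type and less RNA per cell cannot be told apart in any result below.

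Notch knockdown was accompanied by a broad change in the germ-free progenitor transcriptome. Of 11786 genes tested, 3799 (32.2%) passed edgeR's quasi-likelihood test at an adjusted p under 0.05, and these genes are referred to as called. Under Notch RNAi 2066 genes rose (17.5%) and 1733 fell (14.7%). These shares are the background for every count of list members, above and below. A fold change of at least 2 was reached by 853 genes that rose (7.24%) and 646 that fell (5.48%), and a fold change of at least 8 by 197 and 89. The median log2 fold change was 0.83 among genes that rose, −0.77 among those that fell and 0.01 over all genes tested. In 3792 of the 3799 called genes the Notch RNAi libraries did not overlap the controls, a separation that 61.1% of all genes tested showed with groups of this size. Where a result is given without a library, that library alone was left out of the fit. The number of calls was 2531 without control library 1 and 2428 without control library 2. In the authors' deposited table of the same comparison 3606 of 10201 genes passed the same threshold, and 3421 genes were called in both, each in the same direction.

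**Figure D1:**
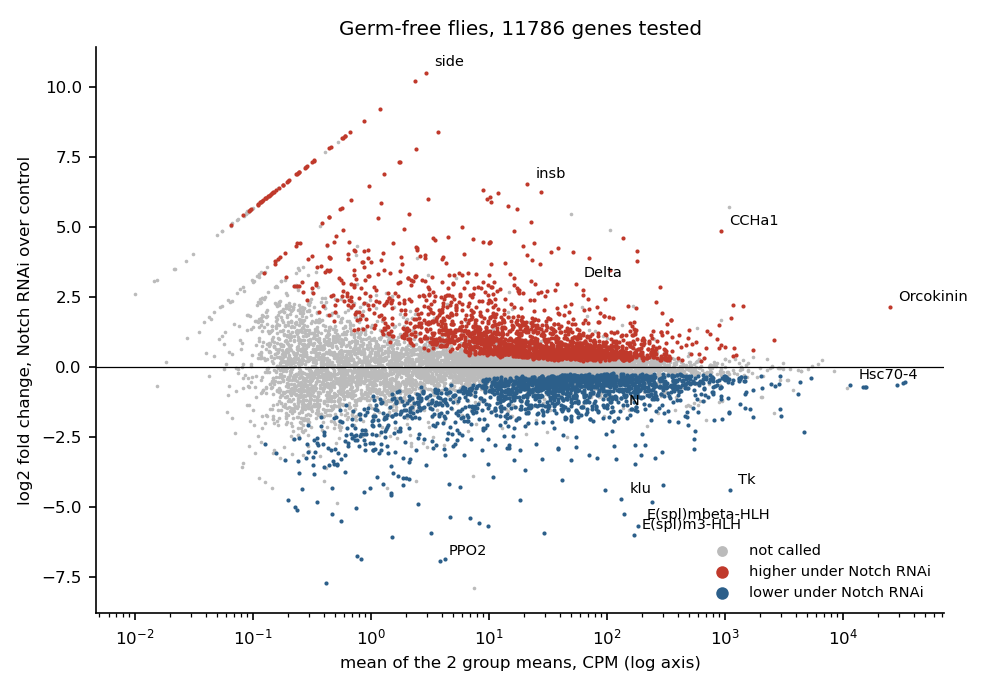
Log2 fold change (vertical axis, Notch RNAi over control) against the mean of the group means in CPM (horizontal log axis) for 11786 genes, 1 point per gene, with called genes coloured by direction. The 2066 genes that rose and 1733 that fell spread over the whole range of levels, with CCHa1 and Orcokinin at high level above the line and the E(spl) genes, klu and Tk below it.

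The targeted gene N encodes the receptor and lies at X:3134870-3172221 on the plus strand of the Ensembl BDGP6.54 annotation. Its level was 67.5, 67.3 and 63.5 CPM in Notch RNAi libraries, against 195 and 197 CPM in controls. The fall by 1.57 on the log2 scale (SE 0.118, edgeR adjusted p = 1.99e-07) left a mean of 66.1 ± 2.26 CPM (SD, n = 3), against 196 CPM in controls. Counts on the gene were therefore reduced and not absent, and the origin of the remaining reads was not tested. The groups lie well apart and replicates within each agree to within a few CPM.

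Among 21 genes of the Notch signalling machinery, 3 rose and 3 fell, with a median log2 fold change of −0.00, against 17.5% and 14.7% of all genes. Delta, the ligand made by stem cells (3R:19302731-19326217, minus strand), reached 93.2, 109 and 89.3 CPM under Notch RNAi, against 15.1 and 9.24 CPM in controls (log2 2.99, SE 0.242, edgeR adjusted p = 5.49e-07). The sanpodo gene spdo, whose membrane protein acts with Notch in asymmetric divisions, stood at 46.0, 33.9 and 39.2 CPM against 2.85 and 2.03 CPM in controls (log2 4.01, SE 0.252). Both genes were low in each control library and high in each knockdown library. The ubiquitin ligase gene neur, which acts on Delta in the sending cell, rose to 180.3, 144 and 164 CPM, against 72.1 and 69.0 CPM in controls. In the opposite direction fng, a glycosyltransferase that modifies the Notch receptor, fell to 21.1, 20.3 and 17.0 CPM, against 63.0 and 76.7 CPM in controls (log2 −1.84, SE 0.172). Exons of neur and fng overlap a gene on the other strand, and since the use of strand in counting is not given, their values are uncertain to that extent. The sixth call, the protease gene kuz, had a log2 fold change of −0.37 and lost its call without control library 1, control library 2 or Notch RNAi library 3 (edgeR adjusted p up to 0.199). The remaining 15 genes did not pass, among them Su(H) with a log2 fold change of 0.50 (edgeR adjusted p = 0.063), mam with −0.38 and numb with −0.00.

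The Enhancer of split genes, which encode basic helix-loop-helix repressors and are the classical Notch targets, mostly fell. Of 6 tested, 5 fell and 1 rose, with a median log2 fold change of −3.25, and the summed level of the 7 in the table, with E(spl)mdelta-HLH, which was too low to test, was 19.0, 11.4 and 19.0 CPM under Notch RNAi against 681 and 740.4 CPM in controls. E(spl)mbeta-HLH (3R:26005046-26006023, minus strand) had 8.51, 4.91 and 8.05 CPM in Notch RNAi libraries, against 349 and 376 CPM in controls (log2 −5.66, SE 0.271, edgeR adjusted p = 7.33e-09). E(spl)m3-HLH (3R:26021823-26023127, plus strand) had 6.80, 3.07 and 5.67 CPM, against 318 and 350.4 CPM in controls (log2 −6.02, SE 0.306, edgeR adjusted p = 2e-08). These 2 genes carried nearly the whole E(spl) signal of the controls. E(spl)mgamma-HLH was rarer, at 0.891, 0.614 and 1.12 CPM under Notch RNAi against 7.98 and 7.47 CPM in controls, and fell by 3.14 on the log2 scale. E(spl)m7-HLH, at 0.759, 1.06 and 0.543 CPM against 5.46 and 6.39 CPM, fell by 2.90.

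The 6 E(spl) repressor genes did not move as a block. E(spl)m8-HLH rose, with 2.05, 1.59 and 3.56 CPM under Notch RNAi against 0.212 and 0.216 CPM in controls (log2 3.46, SE 0.605, edgeR adjusted p = 0.000438). Its neighbour E(spl)m7-HLH lies within a few kilobases on the same strand of chromosome arm 3R and had the opposite sign. E(spl)m5-HLH was scarce in both groups, at 0.0330, 0.0558 and 0.0301 CPM under Notch RNAi against 0.667 and 0.216 CPM in controls, and lost its call without control library 1, Notch RNAi library 1 or Notch RNAi library 3 (edgeR adjusted p up to 0.248).

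Bearded family genes encode small proteins that inhibit Neuralized and are in part Notch targets. Of 5 tested, 2 fell and 1 rose. E(spl)malpha-BFM, which lies among the E(spl) genes, fell to 8.94, 8.01 and 9.77 CPM under Notch RNAi, against 189.6 and 184 CPM in controls (log2 −4.39, SE 0.172, edgeR adjusted p = 1e-10). E(spl)m2-BFM fell by 2.14 on the log2 scale. Brd was the gene that rose, from counts so few that the call was lost without either control library and without Notch RNAi library 2 or 3 (edgeR adjusted p up to 0.182): it had 0.0990, 0.279 and 0.181 CPM under Notch RNAi and no count in controls.

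Among 11 transcription factors of progenitors and enteroblasts, 5 fell and 2 rose, with a median log2 fold change of −0.46. The fall of klu, a zinc finger factor made in enteroblasts, was the steepest of the list. Its level was 10.8, 8.56 and 9.83 CPM under Notch RNAi, against 249 and 266 CPM in controls (log2 −4.73, SE 0.150, edgeR adjusted p = 6.32e-12). Sox100B fell to 537, 528 and 566 CPM, against 941 and 1094 CPM in controls. Myc, a driver of cell growth, fell by 1.17 on the log2 scale (its exons overlap another gene), Stat92E, the transcription factor of JAK-STAT signalling, by 0.86, and Sox21a, which enteroblasts need to differentiate, by 0.42. In contrast sna and wor, which encode Snail family repressors, rose. The level of sna was 116, 106 and 105 CPM, against 17.0 and 15.5 CPM in controls (log2 2.74, SE 0.170), and that of wor was 11.6, 7.20 and 7.54 CPM against 0.789 and 1.43 CPM (log2 3.00, SE 0.516). The factors peb and fkh had log2 fold changes of 0.00 and 0.19 and did not pass the test.

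**Figure D2:**
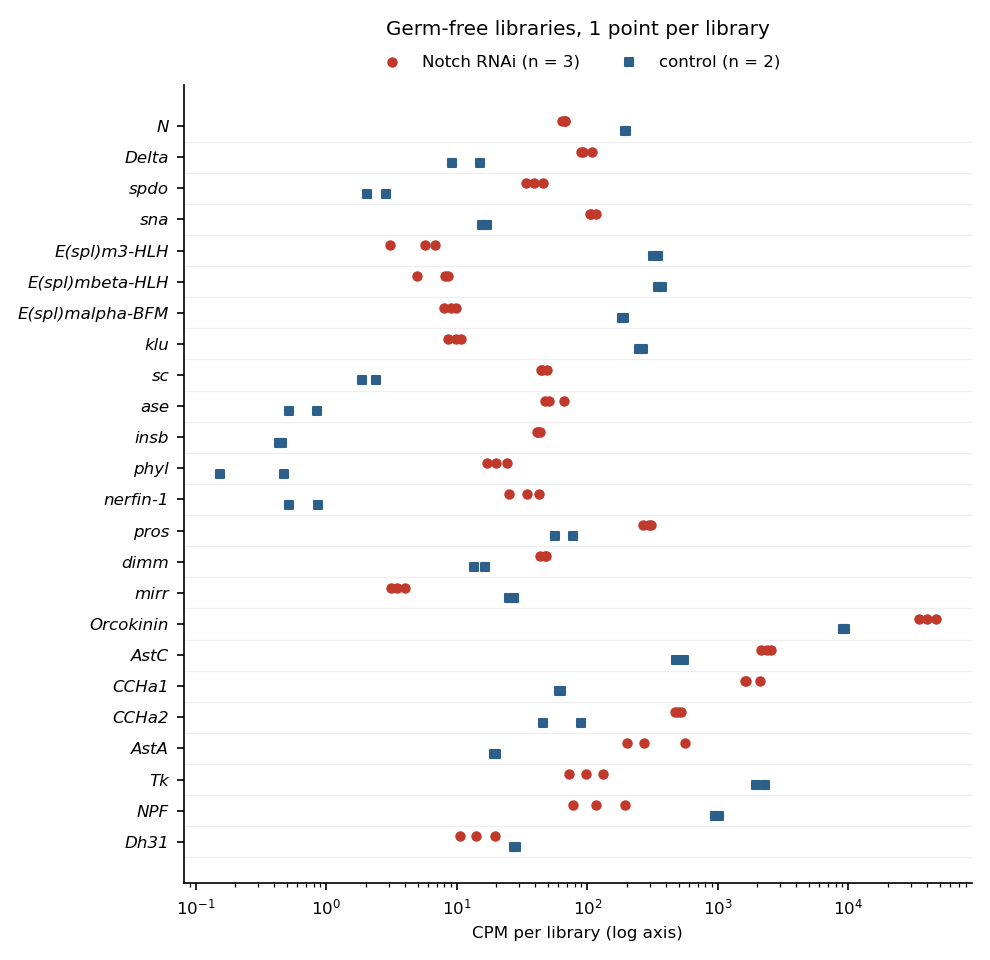
CPM of selected genes in each germ-free library (horizontal log axis), with the 3 Notch RNAi libraries as red circles above the 2 control libraries as blue squares for each gene. The circles lie left of the squares for N, the E(spl) genes, klu, mirr, Tk and NPF, and right of them for Delta, sc, ase, insb, Orcokinin and CCHa1.

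Genes that direct cells to the enteroendocrine fate were in part higher. Of 16 tested, 8 rose, 1 fell and 7 did not pass, with a median log2 fold change of 1.88, or 1.18 where l(1)sc, which had no count in controls, is set at its lower bound. The proneural gene sc, a bHLH activator, had 44.9, 48.8 and 44.2 CPM under Notch RNAi, against 1.88 and 2.42 CPM in controls (log2 4.43, SE 0.298, edgeR adjusted p = 6.88e-08). The related gene ase had 66.0, 47.1 and 50.4 CPM, against 0.849 and 0.518 CPM in controls (log2 6.27, SE 0.492, edgeR adjusted p = 1.01e-06). The groups did not overlap for either gene, a separation that 61.1% of all genes tested showed.

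Further regulators of the same list were called higher. The nuclear factor gene insb, known from sensory organ precursors as a partner of Suppressor of Hairless, had 43.5, 41.8 and 41.4 CPM under Notch RNAi, against 0.455 and 0.432 CPM in controls (log2 6.56, SE 0.390). The adaptor gene phyl, whose product marks the repressor Tramtrack for degradation, rose by 6.10 on the log2 scale to 19.8, 17.0 and 24.2 CPM. The repressor's own gene ttk was at 157, 122 and 143 CPM against 129.5 and 139.9 CPM in controls (log2 0.06, edgeR adjusted p = 0.792). The zinc finger gene nerfin-1 rose by 5.65 and the paired box gene Poxn by 4.26 on the log2 scale.

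The later enteroendocrine factors rose less. The homeobox gene pros, the standard marker of enteroendocrine cells, had 307, 266 and 295 CPM under Notch RNAi, against 56.3 and 76.9 CPM in controls (log2 2.12, SE 0.380, edgeR adjusted p = 0.000988), though its exons overlap an opposite gene. The bHLH gene dimm, a factor of peptide-secreting cells, had 47.0, 43.5 and 47.8 CPM, against 13.5 and 16.3 CPM (log2 1.63, SE 0.257). The Iroquois gene mirr, which is used by a subset of enteroendocrine cells, fell to 3.99, 3.49 and 3.10 CPM, against 25.1 and 27.5 CPM in controls (log2 −2.90, SE 0.283). The 7 others did not pass, among them tap with 122, 159.9 and 139 CPM against 81.8 and 101 CPM (edgeR adjusted p = 0.101) and Ptx1 with a log2 fold change of 0.07.

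Peptide hormone genes split into those that rose and those that fell. Of 13 tested, 7 rose and 2 fell, with a median log2 fold change of 2.14. Orcokinin was the most abundant, at 34798, 47133 and 40302 CPM under Notch RNAi against 9139 and 9349.7 CPM in controls (log2 2.14, SE 0.321, edgeR adjusted p = 0.000176). As a share of all counts it took 4.29 ± 0.485% of a Notch RNAi library (SD, n = 3) and 0.857 ± 0.0538% of a control library (SD, n = 2). AstC, the allatostatin C gene, had 2135, 2547 and 2376 CPM, against 474 and 549.8 CPM in controls (log2 2.20, SE 0.234). A larger relative change was seen in CCHa1, a gut peptide gene, with 1658, 1626 and 2087 CPM against 61.1 and 62.5 CPM in controls (log2 4.86, SE 0.149, edgeR adjusted p = 5.75e-12). AstA rose by 4.14 on the log2 scale with a wide spread, at 272, 202 and 563 CPM against 19.9 and 19.2 CPM in controls. The myoinhibitory peptide gene Mip, CCHa2 and sNPF rose by 3.31, 2.86 and 3.44.

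The 2 list members that fell were Tk and NPF. The diuretic hormone gene Dh44, which is outside the list, was also called lower (log2 −3.46) and is described further below. Tk, the tachykinin gene, fell to 133, 97.7 and 72.4 CPM in Notch RNAi libraries, against 1951 and 2299.5 CPM in controls (log2 −4.40, SE 0.288, edgeR adjusted p = 1.65e-07). NPF, the neuropeptide F gene, fell to 193, 117 and 77.6 CPM, against 944 and 1017 CPM (log2 −2.93, SE 0.424). In the fly midgut Tk and NPF are commonly made by the same enteroendocrine class, and AstC by another. Which classes of cells lie behind the changes was not tested. Dh31, a further hormone of Tk cells, had 10.7, 19.6 and 13.9 CPM against 28.6 and 27.3 CPM in controls, a log2 fold change of −0.92 that did not pass (edgeR adjusted p = 0.178). Of 10 enteroendocrine markers, which overlap these lists, 7 rose and 2 fell.

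The machinery that makes and releases peptide hormones rose moderately. Of 9 prohormone processing genes 6 rose and none fell, with a median log2 fold change of 0.71, and the count was 3 without control library 1. Phm, the enzyme gene for the hydroxylation step of peptide amidation, had 1065, 1242 and 1135 CPM under Notch RNAi, against 519 and 622 CPM in controls (log2 1.01, SE 0.146), with exons that overlap an opposite gene. The convertase chaperone gene 7B2 had 272, 326 and 302 CPM, against 144 and 166 CPM (log2 0.95, SE 0.153). Of 19 genes for regulated vesicle release 13 rose and none fell, with a median of 0.93. The rises numbered 11 without Notch RNAi library 2 and with the replicate number fitted as a block. The median was 0.82 without control library 1 and 1.04 without control library 2. Rab3, the GTPase gene of secretory vesicles, had 138, 130.0 and 148 CPM, against 33.9 and 37.8 CPM in controls (log2 1.95, SE 0.252). The synaptotagmin gene Syt4 and the vesicle SNARE gene nSyb rose by 1.04 and 1.36, while the general SNARE genes Syb and Syx1A had −0.12 and −0.11 and did not pass. The synaptic gene brp, also a neuron marker, rose by 1.35 on the log2 scale, whereas the neuron marker elav, with a log2 fold change of 0.50, did not pass (edgeR adjusted p = 0.0556), and was called without control library 2 (edgeR adjusted p = 0.00613).

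Of 24 axon guidance genes 8 rose (33.3%) and 2 fell (8.33%), beside 17.5% and 14.7% of all genes, with a median log2 fold change of 0.21. The Sidestep family consists of immunoglobulin proteins, some of which guide motor axons, and 2 of its genes had no count in controls. The level of side was 7.26, 5.83 and 4.46 CPM under Notch RNAi with no count in either control, at least 5.73 higher on the log2 scale if each control is given 3 counts (edgeR adjusted p = 1.29e-06). For side-II the values were 5.97, 4.63 and 3.74 CPM with no count in controls, at least 5.44 higher. The paralogs side-V and side-VII rose by 3.07 and 2.18. The homophilic adhesion gene Fas3 had 116, 106 and 92.8 CPM, against 47.6 and 44.1 CPM in controls (log2 1.19, SE 0.121), and comm rose by 1.25. The guidance receptor genes robo1 and robo2 had log2 fold changes of −0.10 and −0.27 and did not pass. Of the 2 genes that fell, comm2 had −1.64, and Dscam1 had −0.81 with its call lost without any of the 5 libraries (edgeR adjusted p up to 0.272).

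Genes of mitosis rose together. Of 44 cyclin, kinase, kinetochore and spindle genes 37 rose and 1 fell, with a median log2 fold change of 1.42, and their summed level was 1254, 1121 and 1333 CPM under Notch RNAi against 695 and 698 CPM in controls. Cdk1, the mitotic kinase gene, had 27.8, 24.1 and 28.4 CPM, against 6.01 and 6.18 CPM in controls (log2 2.14, SE 0.177, edgeR adjusted p = 4.58e-07). Its cyclin gene CycB had 18.1, 11.9 and 21.9 CPM, against 2.00 and 2.55 CPM (log2 2.93, SE 0.322). The phosphatase gene stg, which activates Cdk1 and sets the time of division, rose by 1.81 on the log2 scale. Among genes of the central spindle and cytokinesis, tum had 42.4, 32.9 and 47.2 CPM, against 4.58 and 5.18 CPM in controls (log2 3.07, SE 0.284), and pav rose by 2.65. The chromosomal passenger genes aurB and borr rose by 2.72 and 2.83, and the kinetochore gene Spc25 by 2.85. The gene that fell was tacc, a microtubule regulator (log2 −0.57, overlapping an opposite gene), and 6 did not pass, among them Bub1 with a log2 fold change of −0.15.

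DNA replication genes moved in the same direction. Of 37 tested 28 rose and 1 fell, with a median log2 fold change of 1.13 and a summed level of 815, 756 and 876 CPM under Notch RNAi against 569 and 579.7 CPM in controls. PCNA, the sliding clamp gene, had 44.7, 37.7 and 61.3 CPM, against 8.98 and 5.92 CPM in controls (log2 2.68, SE 0.249, edgeR adjusted p = 1.88e-06). The helicase genes Mcm2, Mcm5 and Mcm6 rose by 2.04, 2.52 and 2.09, and the ribonucleotide reductase genes RnrL and RnrS by 1.59 and 0.86. CycE, the cyclin gene of S phase entry, had 10.03, 8.82 and 9.83 CPM, against 2.46 and 2.12 CPM in controls (log2 2.06, SE 0.303; its exons overlap an opposite gene). The G1 genes CycD and Cdk4 had −0.18 and 0.05 and did not pass. The gene that fell, fzr, encodes the activator of the anaphase-promoting complex that endocycling cells use, and had 43.5, 39.4 and 42.1 CPM, against 133 and 157 CPM in controls (log2 −1.80, SE 0.161).

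Among 18 genes of asymmetric division and cell polarity, 6 rose (33.3%) and 3 fell (16.7%), beside 17.5% and 14.7% of all genes. The count of falls was 1 without control library 2. The genes that rose include cargo and partners of the neuroblast determinants: mira, the adaptor that carries Prospero, had 304, 315 and 373 CPM under Notch RNAi, against 135 and 159.6 CPM in controls (log2 1.17, SE 0.139). Its list partner pon, which binds Numb, had 26.7, 20.3 and 22.5 CPM, against 7.22 and 9.20 CPM (2.83-fold, log2 SE 0.217). The apical polarity gene baz fell by 0.52 on the log2 scale, while aPKC and scrib had −0.06 and 0.02 and did not pass.

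**Figure D3:**
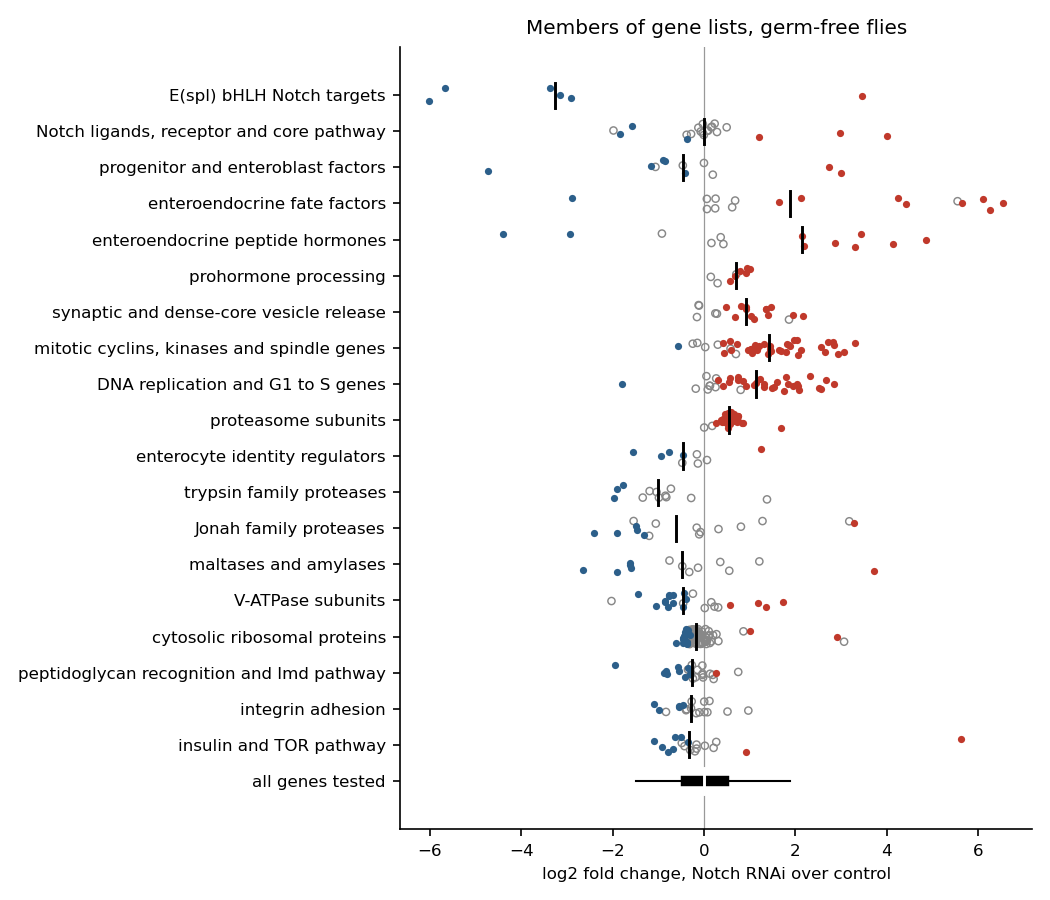
Log2 fold change (horizontal axis, Notch RNAi over control) of each tested member of the gene lists, 1 point per gene, filled red or blue where called higher or lower and open where not called, with a black bar at each list's median. The bottom row gives the median, the middle 50% and the 5th to 95th percentile (−1.48 to 1.88) of all genes tested. The E(spl) genes lie left of that range for the most part, and most mitosis, replication and proteasome members lie right of 0.

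Proteasome genes rose as a set of small changes. Of 32 subunit genes 30 rose and none fell, with a median log2 fold change of 0.54, and the summed level was 4698, 4743 and 5443 CPM under Notch RNAi against 3363 and 3209.8 CPM in controls. The regulatory subunit gene Rpt1 was at 173, 172 and 193 CPM, against 127 and 128 CPM in controls (log2 0.49, SE 0.0801, edgeR adjusted p = 0.000252). Rpn13 and Rpn6, with 0.01 and 0.18, did not pass. The count of rises ran from 26 to 30 over all the alternatives run, and no member was called lower under any of them.

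Ribosomal protein genes moved little and the calls depended on the libraries. Of 86 cytosolic ribosomal protein genes 19 fell (22.1%) and 2 rose (2.33%), beside 14.7% and 17.5% of all genes, with a median of −0.17. The falls numbered 5 without control library 1, 4 without control library 2 and 7 without Notch RNAi library 1. RpL3 fell by 0.46 on the log2 scale, at 804, 974 and 937 CPM against 1219.8 and 1267 CPM in controls, and its exons overlap other genes. The paralogs that rose are RpS15Ab, at 54.0, 62.7 and 69.5 CPM against 33.9 and 27.3 CPM (log2 1.02), and RpS19b, at 1.25, 0.976 and 1.60 CPM against 0.121 and 0.216 CPM (log2 2.92). Genes with near-identical copies share reads, so values of such paralogs are uncertain. Of 72 mitochondrial ribosomal protein genes 18 rose and 3 fell (median 0.27), with 2 rises without control library 2, 9 rises without Notch RNAi library 3 and 1 fall without either control. Respiratory chain and ATP synthase genes showed 12 rises and 1 fall among 72 (median 0.18), and the rises numbered 19 without control library 1, 2 without control library 2 and 5 without Notch RNAi library 3, with 0 falls without control library 1 or Notch RNAi library 1. In this list UQCR-11, a complex III subunit gene, rose by 0.77 to 181, 190.0 and 225 CPM, against 129 and 105 CPM in controls.

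The vacuolar proton pump showed a division among its subunit genes. Of 23 tested 12 fell and 4 rose, with a median log2 fold change of −0.45 and a summed level of 5507, 5114 and 5136 CPM under Notch RNAi against 9124 and 7645 CPM in controls. The falls numbered 9 without Notch RNAi library 2 or 3, and the median was −0.28 without control library 1. Control library 1 was higher than control library 2 in 18 of the 23 genes. Vha68-2, which encodes a catalytic subunit, had 492, 435 and 489 CPM, against 1074 and 896 CPM in controls (log2 −1.06, SE 0.146, edgeR adjusted p = 5.57e-05). Vha26 and VhaSFD fell by 0.79 and 0.86. The 4 that rose include Vha68-1, a paralog of Vha68-2, at 78.3, 79.3 and 84.0 CPM against 33.7 and 37.4 CPM (log2 1.18, SE 0.238), and VhaAC45RP at 35.5, 40.8 and 37.0 CPM against 10.6 and 12.2 CPM (log2 1.73, SE 0.191).

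Enterocyte regulators and structural genes were in part lower. Of 9 tested 4 fell and 1 rose, with a median of −0.47, and the falls numbered 2 without control library 1 or without Notch RNAi library 2. The brush border myosin gene Myo31DF had 233, 214 and 221 CPM under Notch RNAi, against 374 and 379 CPM in controls (log2 −0.76, SE 0.135; its exons overlap an opposite gene). The midgut gene mex1 had 58.3, 56.0 and 60.5 CPM, against 134 and 88.9 CPM (log2 −0.94, SE 0.180). Of regulators used across the midgut, GATAe had a log2 fold change of 0.07 and Hnf4 −0.15, and neither passed. The homeobox gene cad, which marks the posterior midgut, was the member that rose, at 62.5, 47.4 and 58.4 CPM against 22.02 and 25.3 CPM in controls (log2 1.25, SE 0.203). The POU factor gene nub fell by 1.56, a call lost without control library 1, Notch RNAi library 2 or Notch RNAi library 3 (edgeR adjusted p up to 0.22).

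Digestive enzyme genes were on average lower under Notch RNAi, but the control libraries disagreed with each other about their level. The 12 trypsin genes summed to 3416, 5630.1 and 4427 CPM under Notch RNAi, against 13393 and 6186 CPM in controls. The 16 Jonah protease genes summed to 6849, 7061 and 5436 CPM, against 19233 and 9273 CPM. The 13 maltase and amylase genes summed to 4616, 8362 and 6282 CPM, against 14241 and 7510.1 CPM in controls. Control library 1 was higher than control library 2 in 12 of 12 trypsin, 16 of 16 Jonah and 11 of 13 maltase and amylase genes, and for maltases the second Notch RNAi library lay above control library 2.

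Calls within these families depended on the libraries. Of the trypsins 3 fell, of the Jonah genes 5 fell and 1 rose, and of the maltases and amylases 5 fell and 1 rose. Without control library 1 the falls numbered 0, 0 and 0 in the 3 families, without Notch RNAi library 1 they numbered 0, 2 and 1, and without Notch RNAi library 3 they numbered 0, 1 and 1. The Jonah rises numbered 0 without either control or Notch RNAi library 1 or 3, and 2 without Notch RNAi library 2. Mal-A7, a maltase gene, had 93.6, 128 and 81.1 CPM against 485 and 265 CPM in controls, and its log2 fold change of −1.89 lost its call without control library 1 (edgeR adjusted p = 0.0972). The amylase-related gene Amyrel went against the trend, at 17.4, 36.9 and 21.8 CPM under Notch RNAi against 1.64 and 2.25 CPM in controls (log2 3.72, SE 0.795), with exons that overlap an opposite gene. Genes with near-identical copies such as Amy-p and Amy-d, or alphaTry and betaTry, share reads and their separate values are uncertain. The 8 enterocyte markers, which overlap these families, summed to 4721, 8576 and 6307 CPM under Notch RNAi against 16308 and 8268 CPM in controls, with 6 called lower, and their part in the result was not tested.

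**Figure D4:**
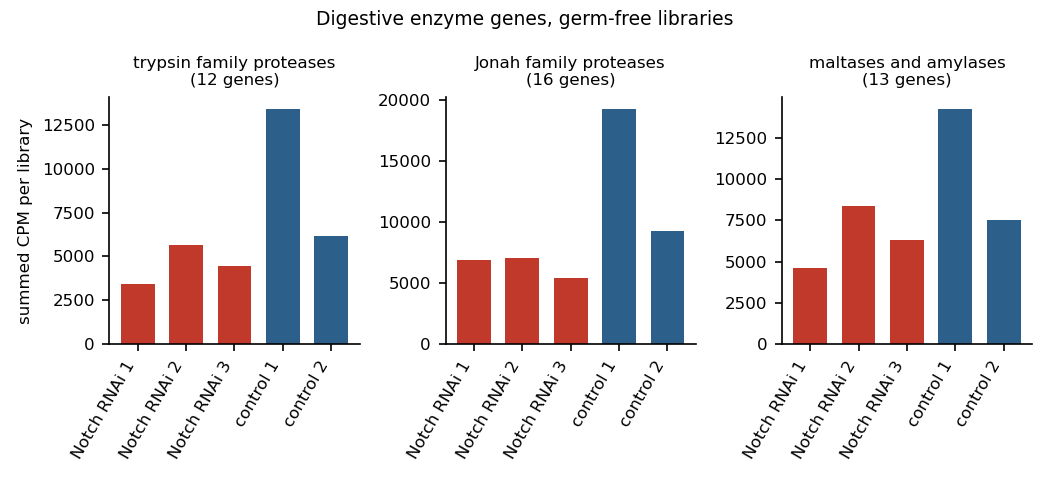
Summed CPM (vertical axis from 0) of 12 trypsin, 16 Jonah and 13 maltase and amylase genes in each germ-free library, with the 3 Notch RNAi libraries left of the 2 controls. Control library 1 is the highest in each panel, at 13393, 19233 and 14241 CPM, and control library 2 is at 6186, 9273 and 7510.1 CPM.

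Genes of lipid and carbohydrate metabolism differed in how many were called. Of 17 lipid genes 1 rose (5.88%) and 2 fell (11.8%), beside 17.5% and 14.7% of all genes. FASN1, the fatty acid synthase gene, rose to 93.4, 105 and 104 CPM under Notch RNAi, against 53.0 and 52.5 CPM in controls (log2 0.94, SE 0.123), while the lipid droplet gene Lsd-2 fell to 549.6, 543 and 583 CPM, against 976 and 1097 CPM (log2 −0.89, SE 0.126). Glycolysis genes showed 7 falls (43.8%) and 1 rise (6.25%) among 16 (median −0.27), with 4 falls without control library 1 and 0 rises without either control, Notch RNAi library 1 or Notch RNAi library 3. Pgi, the phosphoglucose isomerase gene, and Tpi, the triose phosphate isomerase gene, each fell by 0.66. In the insulin and TOR list 7 of 18 fell (38.9%) and 2 rose (11.1%, median −0.32), with the rises numbering 1 without control library 1 or Notch RNAi library 3 and 0 without control library 2. The kinase gene Akt fell to 292, 275 and 245 CPM, against 419 and 511 CPM in controls (log2 −0.78, SE 0.108), and the transcription factor gene foxo by 0.67.

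Genes that anchor cells to the basement membrane were lower in part. Of 18 integrin adhesion genes 5 fell and none rose, with a median of −0.28. Itgbn, a beta integrin gene of the midgut, had 128, 129 and 114 CPM under Notch RNAi, against 256 and 274 CPM in controls (log2 −1.10, SE 0.117, edgeR adjusted p = 5.02e-06; its exons overlap an opposite gene). The main beta integrin gene mys was at 986, 939 and 879 CPM, against 1333 and 1404 CPM (log2 −0.55, SE 0.104). The linker genes Ilk and Fit1 had log2 fold changes of −0.10 and −0.17 and did not pass. Among 15 matrix genes 3 rose (20%) and 3 fell (20%), near the 17.5% and 14.7% of all genes, and nothing is read from these counts. The laminin gene wb fell by 0.91 and the protease gene Mmp1 by 0.80, and trol, the perlecan gene, rose by 0.77 (Mmp1 and trol have exons that overlap another gene).

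Of 19 junction genes 6 rose and 2 fell, and these counts were 2 and 1 without control library 2. The 2 rises that remained were the smooth septate junction genes of the midgut, Ssk at 688, 596 and 697 CPM under Notch RNAi against 411 and 229 CPM in controls (log2 1.05, SE 0.223), and Tsp2A at 237, 207 and 248 CPM against 129 and 76.2 CPM (log2 1.17, SE 0.189). Their partner gene mesh had 339, 244 and 367 CPM against 361 and 205 CPM and did not pass (log2 0.16). In these genes too the control libraries differed, with library 1 above library 2.

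Immune recognition genes were lower in part, in flies that were germ-free in both groups. Of 24 genes of peptidoglycan recognition and the Imd pathway 9 fell and 1 rose, with a median of −0.25. The falls numbered 6 without Notch RNAi library 3 and 4 with the replicate number fitted as a block. Rel, the NF-kappaB factor gene of the pathway, had 393, 404 and 412 CPM under Notch RNAi, against 693 and 713 CPM in controls (log2 −0.80, SE 0.146, edgeR adjusted p = 0.000607). IKKbeta, the kinase gene upstream of Rel, fell to 33.4, 34.1 and 29.8 CPM, against 54.6 and 64.4 CPM (log2 −0.88, SE 0.0969; its exons overlap another gene). PGRP-LA fell to 144, 142 and 132 CPM, against 244 and 251 CPM (log2 −0.83, SE 0.114). The rise, ben, had a log2 fold change of 0.27 and lost its call without control library 2 or Notch RNAi library 2 (edgeR adjusted p up to 0.221), and without Notch RNAi library 1 the rises numbered 2. Of 8 antimicrobial peptide genes tested 3 fell, none of which kept its call without control library 1, and their summed level was at most 22.4 CPM in any library.

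In 5 lists of other signalling pathways the share of members that rose ran from 0% to 21.4% and the share that fell from 14.3% to 27.3%, beside 17.5% and 14.7% of all genes. No difference from the background is read from these shares, and the genes below are given for their own values. In JAK-STAT signalling 3 of 14 genes rose and 2 fell, with 1 fall without control library 2. The cytokine gene upd2 had 625, 436 and 402 CPM under Notch RNAi, against 166 and 171 CPM in controls (log2 1.53, SE 0.289), and upd3 had 174, 135 and 146 CPM, against 99.1 and 84.9 CPM (log2 0.72, SE 0.160). In EGF receptor signalling 5 of 23 fell and 2 rose. The falls numbered 3 without control library 1 or Notch RNAi library 3 and 2 without control library 2, and the rises 1 without either control or Notch RNAi library 2. The feedback inhibitor gene sty fell to 119, 149 and 93.6 CPM, against 224 and 252 CPM in controls (log2 −0.98, SE 0.171), and stet, a rhomboid protease gene, rose by 2.55. Of 11 BMP genes 3 fell, with 1 fall without control library 2 or Notch RNAi library 3: Mad, the transducer gene, had a log2 fold change of −0.77. Of 15 Wnt genes 3 rose and 3 fell, with 0 rises and 1 fall without control library 2 and 1 rise without control library 1, Notch RNAi library 2 or Notch RNAi library 3. The Wnt feedback gene nkd fell to 23.0, 26.3 and 21.3 CPM, against 43.1 and 44.1 CPM (log2 −0.89, SE 0.147). Of 13 Hippo genes 3 fell and 1 rose, with 0 rises without control library 1 and 1 fall without control library 2, and kibra fell by 0.79.

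Death-inducing genes that neighbour each other on chromosome arm 3L differed in sign. In the list of 16 JNK and cell death genes 4 rose (25%) and 3 fell (18.75%), beside 17.5% and 14.7% of all genes. The rises numbered 2 without control library 1. The gene hid fell to 9.70, 10.5 and 7.51 CPM under Notch RNAi, against 63.6 and 73.0 CPM in controls (log2 −2.88, SE 0.177, edgeR adjusted p = 2.31e-08). Its neighbours rpr and grim rose: rpr was at 6.10, 7.90 and 8.86 CPM, against 1.70 and 2.38 CPM (log2 1.91, SE 0.311), and grim rose by 1.00 with exons that overlap other genes. All 3 encode inhibitors of the apoptosis inhibitor Diap1. The JNK-activating kinase gene hep fell by 0.80.

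Beyond the lists, the genes described were picked by a fixed rule, taking 15 called genes in each direction by the size of the log2 fold change, among genes without overlap between the groups and of at least 5 CPM in the higher group. Of the rises, 6 are described above (side, insb, ase, phyl, nerfin-1 and CCHa1), and of the falls 5 (E(spl)m3-HLH, E(spl)mbeta-HLH, E(spl)malpha-BFM, klu and Tk). The others include Hsc70-2, an Hsc70 chaperone paralog, with 6.86, 8.03 and 7.29 CPM under Notch RNAi against 1 count in control library 1 and none in control library 2, a log2 ratio of summed levels of 8.70 (95% exact counting interval 6.22 to 14.0, counting error only). The bHLH gene Fer1 had 22.6, 15.2 and 19.3 CPM, against 0.182 and 0.432 CPM in controls (log2 6.01, SE 0.543). The homeobox gene hbn had 36.7, 24.5 and 25.1 CPM, against 0.394 and 0.691 CPM (log2 5.76, SE 0.792). The immunoglobulin adhesion gene klg and the neprilysin-like gene Nepl21 rose by 5.91 and 5.18, and the genes CG6044, CG40486, CG34458 and CG34007, named by number, by 6.34, 6.22, 6.01 and 5.01. CG6044 overlaps another gene's exon on the same strand.

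The largest fall on the log2 scale was that of PPO2, a prophenoloxidase gene of crystal cells (blood cells), at 0, 0.167 and 0 CPM under Notch RNAi against 9.95 and 5.53 CPM in controls (log2 −6.94, SE 1.33, edgeR adjusted p = 0.00119). In the controls with bacteria its mean was lower, at 0.156 CPM with L. brevis and 0.0494 CPM with L. plantarum. The effects there were −1.49 and 0.17, and the gene passed no interaction test. The related haemocyte marker PPO1 fell by 4.17, while Sr-CI, a scavenger receptor gene of the same marker list, rose by 4.35. Among the falls not yet described was CG6006, at 1.25, 1.00 and 0.633 CPM against 50.7 and 65.7 CPM in controls (log2 −5.92, SE 0.338), and asRNA:CR43472, an antisense RNA that overlaps it and had −5.93. Reads of these 2 genes cannot be told apart without strand. Tektin-C, a gene of the tektin family of microtubule proteins, had 0.198, 0.530 and 0.211 CPM, against 12.6 and 14.5 CPM in controls (log2 −5.39, SE 0.293). The noncoding gene lncRNA:CR44547 and CG15629 (whose exons overlap another gene) fell by 5.68 and 5.58. CG8560 and CG8562, both on chromosome arm 3L, fell by 5.27 and 4.82 and were higher in control library 1 than in control library 2, at 362 against 188 CPM and at 619.7 against 316 CPM. With L. brevis their effects were −0.58 and −0.83, and with L. plantarum −0.10 and −0.26. Neither gene passed an interaction test. The fall of Btnd rested on control library 2, where it had 18.1 CPM against 0.364 CPM in control library 1 and 0.132 to 0.279 CPM under Notch RNAi; without that library, and without any 1 Notch RNAi library, its call was lost (edgeR adjusted p up to 0.799). The fall of CG10799 was lost without control library 1 or Notch RNAi library 1 (edgeR adjusted p up to 0.0826). Its effects were −1.33 with L. brevis and −0.54 with L. plantarum, and it passed no interaction test.

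By absolute difference in CPM, after the 3 hormone genes, the rises were led by alphaTub84B, an alpha tubulin gene with a close paralog, at 3099.7, 3297 and 4048 CPM under Notch RNAi against 1727 and 1811 CPM in controls (log2 0.98, SE 0.120). CG9568 had 2058, 1736 and 2060.4 CPM, against 500.4 and 340.0 CPM (log2 2.22, SE 0.350), and CG4577 had 1574, 1758 and 1951 CPM, against 459 and 576 CPM (log2 1.77, SE 0.157). The gene w, an eye pigment transporter gene whose minigene commonly marks fly transgenes, had 1272, 1310.1 and 1368 CPM, against 445 and 489 CPM (log2 1.495, SE 0.173). 14-3-3epsilon, CG14989 and Act42A (an actin gene with close paralogs) rose by 0.61, 1.30 and 1.19. Of the 10 largest falls in CPM, 6 were precursor or 18S ribosomal RNA genes, which exist in many copies. Of these only pre-rRNA:CR45846 kept its call without control library 1. Without control library 2, pre-rRNA:CR45847 and the 3 18S genes were not called, and without Notch RNAi library 3 the same 18S genes were not called. The constitutive chaperone gene Hsc70-4 fell to 8607, 8811 and 9888 CPM, against 13637 and 14787 CPM in controls (log2 −0.64, SE 0.115). The protease genes yip7, Bace and Jon65Aiv had log2 fold changes of −2.30, −1.73 and −1.496, and without control library 1 none of the 3 was called (yip7 edgeR adjusted p = 0.067). Bace and Jon65Aiv also lost their calls without Notch RNAi library 1 or 3 (edgeR adjusted p up to 0.367).

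The direction of change varied with level and gene class. Among 111 genes over 1000 CPM, 37.8% fell and 9.91% rose, whereas among 5550 genes of 10 to 100 CPM 15.4% fell and 20.9% rose. Small nuclear RNA genes, which include the RNAs of the spliceosome, showed 7 rises and 0 falls among 17 tested, with a median log2 fold change of 1.27. Sharing of reads between copies of these genes was not examined, so the 7 rises may not be separate changes. Noncoding RNA genes fell more often than they rose, at 17.0% against 10.8% of 969. Protein-coding genes rose in 18.5% and fell in 14.6% of 10369.

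The germ-free effect of Notch RNAi was then set against the same effect in flies with 1 bacterial species, by testing the difference of effects (an interaction term) in the fit of all 17 libraries. These contrasts share the germ-free libraries. The germ-free effect differed from the L. brevis effect for 94 genes (0.798%), 66 in the positive direction (0.56%) and 28 in the negative (0.238%), and from the L. plantarum effect for 3 genes (0.0255%), of which 1 was positive (0.00848%) and 2 negative (0.017%). Against the mean of both bacterial effects 41 genes differed (0.348%), 27 positive (0.229%) and 14 negative (0.119%). These counts hung on single libraries. Without germ-free control library 1, or without germ-free Notch RNAi library 2, they were 0, 0 and 0 by edgeR, with 1605, 1054 and 1398 genes and 1445, 1133 and 1368 genes at an unadjusted p under 0.05, while DESeq2 on all libraries called 431, 170 and 351. The count against L. brevis was 12 without germ-free control library 2, 21 without germ-free Notch RNAi library 3, 29 without L. brevis control library 1, 61 without L. brevis control library 3, 25 and 12 without L. brevis Notch RNAi libraries 1 and 2, and 217 without L. brevis Notch RNAi library 3. The count against L. plantarum was also 0 without germ-free Notch RNAi library 1 or 3, L. plantarum control library 1 or 3 or L. plantarum Notch RNAi library 2, and 13 and 10 without germ-free control library 2 and L. plantarum control library 2. The count against the mean ran from 0 to 89 over the left-out libraries, at its lowest also without germ-free Notch RNAi library 3 and at its highest without L. brevis Notch RNAi library 3. None of the 37 differences named, by rule or as list members, kept its call under every alternative.

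Genes of bacterial sensing were among those called. PGRP-LC, the membrane receptor gene of the Imd pathway, had 183, 180.4 and 176 CPM under Notch RNAi against 212 and 233 CPM in controls without bacteria. With L. brevis it had 143, 125 and 127 CPM against 262, 247 and 259.5 CPM in controls, and with L. plantarum 140.2, 152 and 139 CPM against 306, 276 and 333 CPM. The log2 fold change was −0.31 without bacteria, −0.96 in the presence of L. brevis and −1.09 in that of L. plantarum, and the germ-free effect exceeded the mean of the others by 0.72 (SE 0.110, edgeR adjusted p = 0.0244). That call was lost without any of the 5 germ-free libraries (adjusted p up to 0.204). PGRP-LF, a decoy receptor gene of the same pathway, had effects of −0.18, −1.36 and −0.77, and its difference from L. brevis was 1.18 (SE 0.200, edgeR adjusted p = 0.0217); its exons overlap an opposite gene, and the call was lost without either germ-free control, Notch RNAi library 2 or L. brevis Notch RNAi library 2 (adjusted p up to 0.115).

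Dh44 encodes a diuretic hormone and had its highest level of all groups in the germ-free controls. It had 2.71, 1.37 and 0.934 CPM under Notch RNAi against 26.5 and 10.02 CPM in germ-free controls, whereas with L. brevis it had 1.60, 1.08 and 1.59 CPM against 1.25, 1.94 and 1.78 CPM in controls, and with L. plantarum 2.84, 1.94 and 1.56 CPM against 1.48, 2.91 and 1.19 CPM. The germ-free effect was −3.46, the L. brevis effect −0.22 and the L. plantarum effect 0.19, and the difference from the mean of the last 2 was −3.44 (SE 0.572, edgeR adjusted p = 0.0276). The call was lost without germ-free control library 1, which held the highest value, and without 4 other libraries (germ-free Notch RNAi 2 and 3, L. brevis Notch RNAi 1, L. plantarum control 3), with adjusted p up to 0.22. The effects on sna and Fas3 were positive in each condition and larger with L. brevis. For sna they were 2.74 without bacteria and 3.74 with L. brevis, and 1.19 and 2.13 for Fas3, differences of −0.997 and −0.93. Without either germ-free control, without Notch RNAi library 2 or without L. brevis Notch RNAi library 2 neither difference was called, and that of sna was also lost without germ-free Notch RNAi library 3, any L. brevis control or L. brevis Notch RNAi library 1 (adjusted p up to 0.166).

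A number of genes with large changes in germ-free flies showed no called difference between conditions. N, Delta, E(spl)mbeta-HLH, E(spl)m3-HLH, klu, sc, ase, insb, Tk, CCHa1 and Orcokinin passed none of the 3 interaction tests. On the log2 scale the effect on N was −1.57 without bacteria, −1.32 in the presence of L. brevis and −1.72 in that of L. plantarum, and that on Delta was 2.99, 2.63 and 2.38. The effect on klu was −4.73, −4.90 and −4.17, and that on Tk was −4.40, −5.43 and −4.72. Among these genes Orcokinin came closest, with effects of 2.14, 0.37 and 1.35 and an edgeR adjusted p of 0.0591 against L. brevis. A test that was not passed does not show that the effects were equal.

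**Figure D5:**
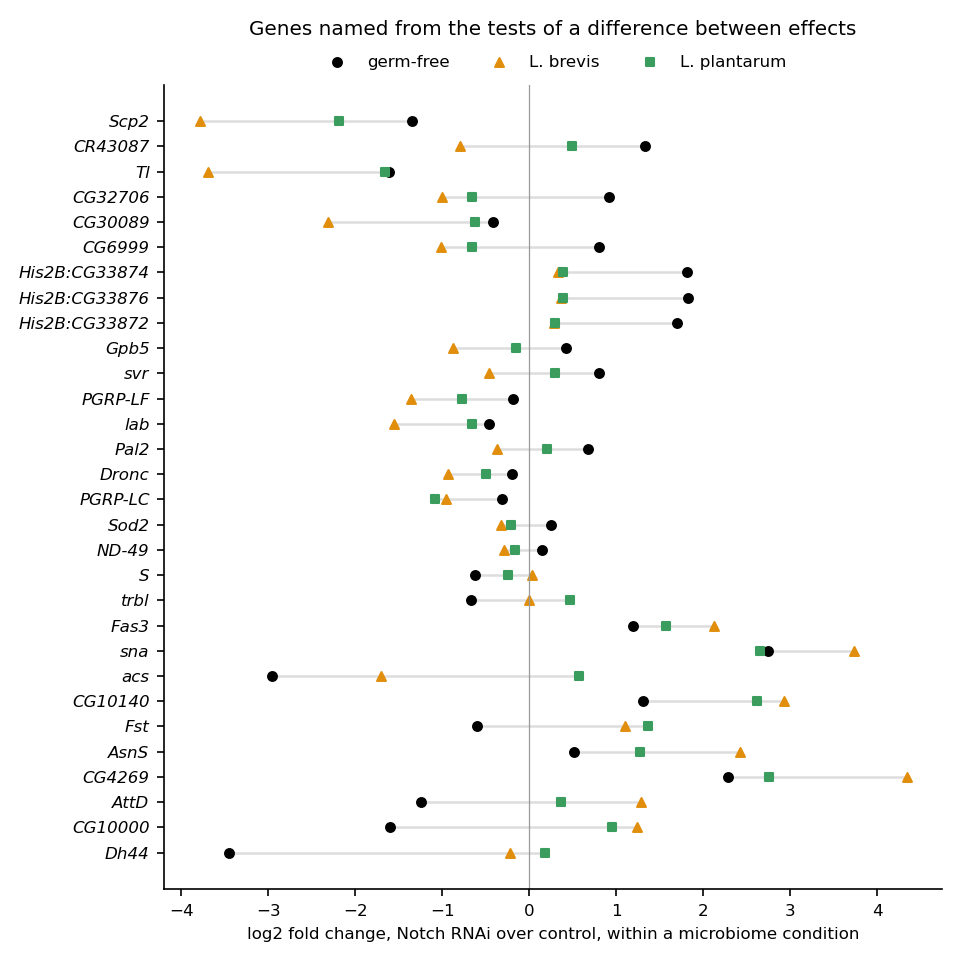
Log2 fold change of Notch RNAi over control (horizontal axis) within germ-free flies (black circles), L. brevis flies (orange triangles) and L. plantarum flies (green squares) for the genes whose difference of effects was named. Dh44 and acs lie furthest left in germ-free flies, and the point furthest right is CG4269 with L. brevis, at 4.34.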

How the data were processed

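Small GFP-positive gut cells were sorted and their RNA sequenced in 17 libraries. The deposited table holds whole-number counts per gene, which the authors made with FastQC, Trimmomatic, HISAT2 and SAMtools, per the submitters' processing notes, with edgeR named for the statistics. Versions, genome build and use of strand are not given in the sources used here. Per the file headers, the authors' deposited comparison table gives log2 fold changes and p-values, used only beside the results computed here.

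Of 17737 genes, 17599 had a symbol in Ensembl BDGP6.54, from which coordinates and overlaps are taken. The rest were tested by gene ID where they passed the filter, and have no coordinates, overlaps or gene class. Counts were filtered (filterByExpr), scaled by TMM and fitted with edgeR 4.0.16 (R 4.3.3; robust quasi-likelihood, Benjamini-Hochberg adjustment, threshold 0.05) over all 17 libraries with a mean per group, which share 1 estimate of spread. Groups come from the genotype and microbiome labels. The standard error is the absolute log2 fold change over the square root of the F statistic. Fold changes are Notch RNAi over control. Totals of 24192918 to 36799569 counts limit precision at low level, and intervals and floors (3 counts per library) cover counting error only. Reads without molecular identifiers are not independent molecules.

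Alternatives were RLE size factors, no filter, DESeq2 1.42.0, only the compared groups, ribosomal RNA removed, the replicate number as a block, and each library left out. On counts simulated for germ-free Notch RNAi against control over 11367 genes, 45% of genes changed by log2 1 and 100% of those changed by log2 2 were recovered, with 7 unchanged genes called. The 200 changed genes were drawn from those with many counts, and all genes were given the same spread. Recovery at low level is therefore not covered, nor is a change as broad as that called here. The members and the 39 pathway and 10 marker lists were chosen with earlier results of these data known. Named are N, Delta, list members, the 15 largest log2 changes each way (at least 5 CPM, no overlap), the 10 largest CPM differences each way, and up to 5 interactions each way per test. Other genes named were chosen after their values were seen.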

Additional observations from a re-analysis of the deposited data

Results flagged for a closer look

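The results here are differences between the effect of Notch RNAi in germ-free flies and the same effect in flies with bacteria, on the log2 scale, each called by edgeR's interaction test in the fit of all 17 libraries. None kept its call under every alternative. Effects are given in the order germ-free, L. brevis, L. plantarum.

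Germ-free effects that lay above those with L. brevis were led by Scp2, a calcium-binding protein gene, with effects of −1.35, −3.79 and −2.19 and a difference of 2.44. The pseudogene CR43087 had a difference of 2.13, CG32706 of 1.92 and CG30089 of 1.91. Tl, the Toll receptor gene, had 5.81, 5.66 and 4.04 CPM under Notch RNAi in germ-free flies against 13.8 and 17.8 CPM in controls, and 1.28, 1.21 and 1.19 CPM with L. brevis against 11.6, 16.01 and 20.3 CPM in controls, a difference of 2.09 (SE 0.395). Its effects were −1.61, −3.70 and −1.66, and the Notch RNAi libraries were lower with L. brevis than without bacteria.

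Germ-free effects that lay below those with L. brevis were those of Dh44 (−3.24), CG10000 (−2.85), the antimicrobial peptide gene AttD (−2.52), CG4269 (−2.06, exons overlapping an opposite gene) and AsnS (−1.91). AsnS, the asparagine synthetase gene, had 21.8, 28.3 and 40.6 CPM under Notch RNAi in germ-free flies against 21.99 and 20.3 CPM in controls, and 126, 153 and 132 CPM with L. brevis against 23.99, 20.5 and 32.2 CPM in controls. Its effects were 0.51, 2.42 and 1.28, and its control libraries overlapped between the conditions.

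Among list members the difference from L. brevis was 1.18 for PGRP-LF and 0.65 for PGRP-LC, 1.09 for the homeobox gene lab, 0.73 for the caspase gene Dronc and 0.57 for Sod2. It was 1.04 for Pal2 and 1.27 for svr, both prohormone processing genes with exons that overlap an opposite gene. It was 1.31 for the glycoprotein hormone gene Gpb5, 0.43 for the complex I gene ND-49, −0.66 for S (the Star gene of EGF ligand processing), −1.0 for sna and −0.93 for Fas3.

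Against L. plantarum the difference was 0.78 for PGRP-LC, −3.52 for acs and −1.14 for trbl, the tribbles gene. The level of acs was 2.47, 2.23 and 1.27 CPM under Notch RNAi in germ-free flies against 16.9 and 13.9 CPM in controls, and 9.49, 6.26 and 3.56 CPM with L. plantarum against 4.18, 5.56 and 3.25 CPM in controls.

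Against the mean of both bacterial effects the difference was 1.75 for CG32706, 1.64 for CG6999, 0.72 for PGRP-LC and 0.88 for PGRP-LF. The histone genes His2B:CG33876, His2B:CG33874 and His2B:CG33872, near-identical copies that share reads, had 1.45, 1.45 and 1.41. On the negative side it was −3.44 for Dh44, −2.71 for CG10000, −2.38 for acs, −1.83 for Fst (the Frost gene of cold response) and −1.47 for CG10140.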

How the results depend on the processing

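Of 419 called genes named by rule, list or text in germ-free flies, 246 kept their call under every alternative run, 173 lost it under at least 1, and 0 changed direction. The count of 3799 calls became 2372 with the replicate number as a block and 2428 to 3268 with a library left out. The labels do not say whether same-numbered samples were prepared together, and no pairing was used in the main fit. Deviations of same-numbered germ-free samples correlated at −0.00438 and 0.000806. With 2 controls the control deviations mirror each other, so these correlations cannot decide whether the numbers pair the samples. Other settings gave 3456 to 4129 calls, the highest by DESeq2, and the share of higher genes ran from 49.9% to 56.5%. The fall of N and the rise of Delta were called under each setting. The difference from L. brevis, with 94 calls, gave 431 by DESeq2, 41 with the compared groups only, 0 with the block (1255 at an unadjusted p under 0.05 by edgeR) and 0 to 217 with a library left out. The difference from L. plantarum, with 3 calls, gave 170 by DESeq2, 0 with the compared groups only (1455 unadjusted), 0 with the block (817 unadjusted) and 0 to 13 with a library left out. The difference from the mean of both, with 41 calls, gave 19 with RLE size factors, 351 by DESeq2, 27 without ribosomal RNA, 0 with the block (1115 unadjusted) and 0 to 89 with a library left out. A fit of the compared groups alone was not run for it. Of 57 uncalled genes followed, 23 changed sign under at least 1 setting. With a library left out the log2 fold change ran from −0.64 to 1.28 for Jon99Fi, −1.999 to 2.22 for CG3168, −0.031 to 5.49 for Muc11A, −2.64 to 2.65 for Mur18B and −0.020 to 0.121 for ttk (lowest without Notch RNAi library 1), from −0.72 to 0.042 for lambdaTry, −0.87 to 0.078 for Amy-p, −0.74 to 0.28 for Amy-d, −1.14 to 0.39 for CG18404 and −1.02 to 0.0095 for Fst (highest without control library 1), and from −2.77 to 1.66 for Hml, −0.28 to 0.010 for Bub1, −0.173 to 0.071 for aPKC, −0.19 to 0.63 for mesh, −0.11 to 0.25 for Cdk4 and −0.034 to 0.078 for scrib (turned without control library 2). It ran from −0.0027 to 0.136 for GATAe, −0.126 to 0.119 for Nop56, −0.061 to 0.042 for Rpn13, −0.070 to 0.072 for nop5, −0.070 to 0.039 for numb, −0.054 to 0.043 for peb and −0.28 to 0.099 for robo1. With the block GATAe had −0.0018, Rpn13 −0.0612, nop5 −0.0704, peb −0.0155 and robo1 0.0704, without the filter Nop56 had 0.0059 and numb 0.0052, and Rpn13 and peb had −0.0022 and −0.0072 with RLE size factors, −0.0011 and −0.0063 by DESeq2 and −0.0033 and −0.0089 without ribosomal RNA. Medians of some lists also crossed 0, among them that of the Bearded family at 0.14 without control library 2 and that of the antimicrobial peptides at 0.47 without the filter. The cause of these moves was not tested, beyond the smaller number of samples in fits that leave out a library. With 2 controls, genes under 1 CPM are the least certain.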

Other observations

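Genes of the ecdysone response were lower in part. Of 18 tested 5 fell (27.8%) and 1 rose (5.56%), beside 14.7% and 17.5% of all genes. The median log2 fold change was −0.37 against 0.01 over all genes. Eip75B, a nuclear receptor gene induced by the steroid hormone ecdysone, had 148, 152 and 139.9 CPM under Notch RNAi, against 280.0 and 300.0 CPM in controls (log2 −0.99, SE 0.128, edgeR adjusted p = 3.31e-05). Eip74EF, an ETS factor gene, had 40.6, 40.1 and 29.4 CPM, against 71.4 and 74.6 CPM (log2 −0.99, SE 0.148), and the receptor gene EcR fell by 0.73. The rise, Hr38, was lost without either control or Notch RNAi library 2 or 3 (edgeR adjusted p up to 0.215), and without Notch RNAi library 3 the rises numbered 2.

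Genes of ribosome assembly moved in both directions. Of 23 nucleolar growth genes 7 fell (30.4%) and 2 rose (8.70%), beside 14.7% and 17.5% of all genes. Non1, a nucleolar GTPase gene, had 641, 701 and 687 CPM under Notch RNAi, against 1334 and 1551 CPM in controls (log2 −1.09, SE 0.0877, edgeR adjusted p = 3.63e-07), and RIOK1 fell by 0.83. The snoRNP genes Nop56 and nop5 had log2 fold changes of −0.00 and 0.01 and did not pass. The rises numbered 1 without either control or Notch RNAi library 2 or 3, and 3 without Notch RNAi library 1. Among 19 oxidase and antioxidant genes 4 rose (21.1%) and 3 fell (15.8%), near the 17.5% and 14.7% of all genes, with 2 rises without control library 2. The catalase gene Cat fell by 0.68, and Keap1, the inhibitor of the stress factor encoded by cnc, rose by 0.69. Of 20 heat-shock chaperone genes 2 rose and 1 fell, with 1 rise without control library 1 and 2 falls without Notch RNAi library 3.

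In the germ-free Notch RNAi group 8 genes of at least 100 CPM in their highest library differed by 10-fold or more between replicates, and in the control group 0 did. The Notch RNAi group holds 3 libraries and the control group 2, so the counts cannot be compared directly. Such genes were not counted in the groups with bacteria. TTLL4A had 2898, 3496 and 36.0 CPM under Notch RNAi, against 37.9 and 43.6 CPM in controls (log2 5.72, SE 2.64, edgeR adjusted p = 0.121). It was split in other groups too, at 4355, 3286 and 41.2 CPM in L. brevis controls and 36.0, 4139 and 66.0 CPM in L. plantarum Notch RNAi libraries. In L. brevis Notch RNAi libraries it ran from 820 to 2095 CPM, and in L. plantarum controls from 645 to 3854 CPM. Muc11A had 610.3, 8.15 and 5.34 CPM, against 6.64 and 7.17 CPM in controls, and Mur18B had 579.5, 10.9 and 11.97 CPM, against 32.0 and 111 CPM. The gene mat had 287, 2.90 and 2.56 CPM, against 0.940 and 3.59 CPM. CG3168 and Jon99Fi were also highest in Notch RNAi library 1, while CG18404 and CG5767 were lowest there. None of these spreads was tested.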
